A study of Arabidopsis thaliana with 22 samples.

Results

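The 64 genes described here had higher transcript levels in expanding leaves than in leaf primordia at ambient CO2 and were near the expanding level in mature leaves. They were chosen on the arrays of plants grown at ambient CO2. The mean log2 level had to rise by at least 2 (4-fold) from primordia to expanding leaves and then move by no more than 0.5 (1.41-fold) to mature leaves. Only probe sets annotated to exactly 1 gene were considered, and 64 of 6782 met both conditions (0.944%). A further 48 probe sets met them but carried no gene name or several.

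Leaf 10 of wild-type Arabidopsis thaliana, cultivar Col-0, was sampled as dissected primordia, during rapid expansion and when mature, at 370 ppm (ambient) or 750 ppm (elevated) CO2. There were 4 arrays per CO2 level for primordia, 3 for expanding leaves and 4 for mature leaves, 22 in all. All plants shared 7 days at 370 ppm before the treatment, 10 h of light (300 µmol per square metre and second, 21 °C) and 14 h of darkness (18 °C) a day. Each primordia replicate pooled 20 plants, while expanding and mature leaves were harvested whole. Each CO2 level had its own chamber, 2 in all, and effects of chamber and CO2 cannot be told apart. By its title, the series concerned stage-specific responses of dark respiration to CO2.

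A leaf primordium consists of small dividing cells. Its cells later enlarge as the wall loosens, chloroplasts mature, and the young leaf turns from an importer into an exporter of sugar. Expansins are proteins of the cell wall that loosen it without cutting its polymers. SWEET proteins carry sugars across membranes. The plastid NDH complex passes electrons into the plastoquinone pool of the thylakoid membrane. RNA of whole organs was measured, so fewer cells of a type and less RNA per cell cannot be told apart.

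Few of the genes carry a functional name. In the gene tables, 9 had a symbol and 1 more, AT2G26690, was listed with the synonym NPF6.2. The other 54 were named by locus only and are given no function here. The 10 named genes comprised 3 expansins (EXPA8, EXPA16 and the expansin-like EXLB1), 2 transporters (SWEET4 and NPF6.2), 3 enzymes (BGLU33, CYP71B24 and LPR2) and 2 plastid NDH subunits (ndhJ and ndhK). By chromosome, 20, 11, 10, 7 and 14 members lay on chromosomes 1 to 5 and 2 in the plastid genome. The plastid pair ndhJ and ndhK was the 1 pair of members within 5 genes of each other.

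The label of genes switched on could not be settled from these values, and positions against the array median are given as a description. In ambient primordia 53 of the 64 members lay below the array median, 43 of them among the lowest 25% of all probe sets, and 11 lay above it. In expanding leaves 46 lay above the median, and 35 had crossed it. Another 18 stayed below the median at both stages. The deposited values carry no detection calls, so a low value is not shown to be an absent transcript. Of the 11 already above the median, ndhJ stood at 2.26 ± 0.59 (log2 level, SD, n = 4) in ambient primordia and ndhK at 1.35 ± 0.64. Levels are log2 values relative to the median probe set of the array, and probe sets differ in brightness, so they are compared between samples and not between genes.

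The members' median per array is a description for the ambient arrays, where the rule set the gap between primordia and the later stages. It ran from -2.16 to -1.37 on the 4 ambient primordia arrays and from -1.95 to -1.59 on the elevated ones. In expanding leaves it was 1.08 to 1.23 at ambient and 1.25 to 1.42 at elevated CO2, without overlap between the 3 and 3 arrays. In mature leaves it was 1.39 to 1.47 at ambient and 1.23 to 1.56 at elevated CO2, and the 2 lowest values, 1.30 and 1.23, were those of elevated replicates 3 and 4. Replicates of a group correlated over all probe sets with r of at least 0.969.

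**Figure D1:**
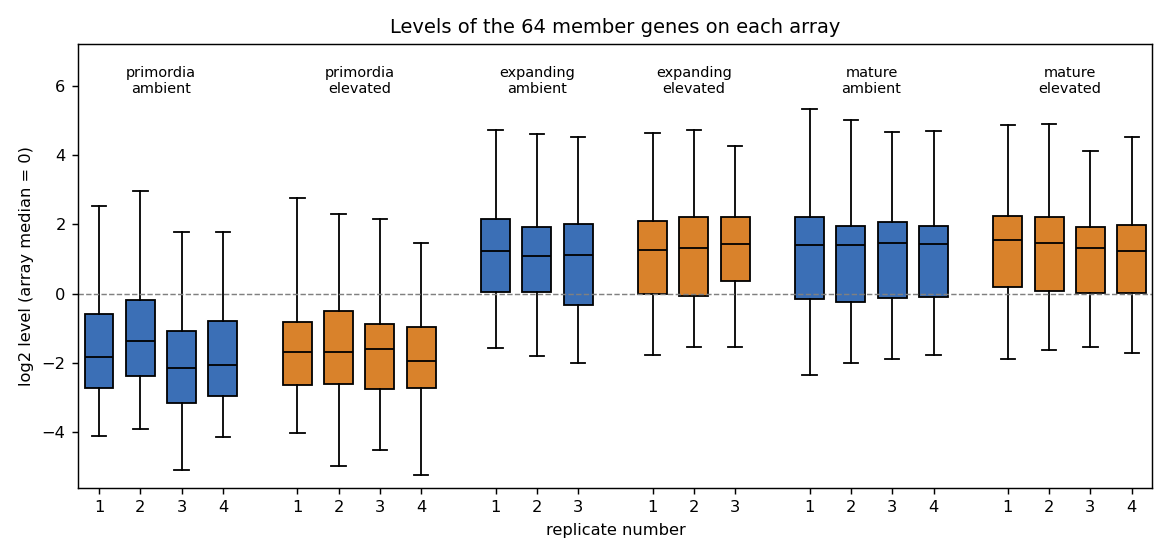
Log2 levels of the 64 members on each of the 22 arrays (vertical axis, array median at 0), grouped by stage and CO2 level along the horizontal axis. Boxes span the first to the third quartile of the members with the median as a line, and whiskers reach the lowest and highest member. The medians of all primordia arrays lie at or below -1.37 and those of all later arrays at or above 1.08.

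The ambient rise, which chose the members, is given as a description. It ran from 2.00 to 5.21 on the log2 scale with a median of 2.56 (5.91-fold) and quartiles at 2.17 and 2.99. The 10 largest rises were those of BGLU33 (5.21), AT5G18600 (5.11), AT1G06830 (4.6), AT1G35710 (4.46), EXLB1 (4.40), AT2G32160 (4.33), AT3G60420 (3.76), AT5G44580 (3.52), AT1G22690 (3.45) and AT5G25840 (3.41). In the limma fit all 64 were called higher in ambient expanding leaves, where the calls over all probe sets were 66.3%, with 35.1% higher and 31.2% lower, and nothing is read from that count. From expanding to mature leaves at ambient CO2, 4 were called higher and 1 lower, against 44.3% of all probe sets called (19.7% higher, 24.6% lower), a count the rule also shaped.

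The thresholds cut through a continuous range. Just inside the rise were AT1G04350 (2.000), AT1G51805 (2.002) and AT4G19830 (2.01), and just outside it AT2G25510 (1.998), AT5G57040 (1.99) and AT2G28810 (1.98). Just inside the window from expanding to mature leaves were AT5G38510 (0.498), AT3G60420 (0.472) and AT1G74440 (-0.454), and just outside it AT1G54740 (0.506), AT3G15310 (0.520) and the sugar transporter gene SWEET11 (0.522, after a rise of 5.51). A total of 69 further genes rose by at least 2 and left the window, 58 by a further rise and 11 by a fall.

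The arrays at elevated CO2 were not used in the choice and tested the rise on independent arrays. All 64 members were called higher in elevated expanding leaves than in elevated primordia at an adjusted p under 0.05 (limma, Benjamini-Hochberg over 12511 probe sets), where the calls over all probe sets were 69.9%, with 36.0% higher and 33.9% lower. The rise ran from 1.59 to 5.19 with a median of 2.68, where the median of all probe sets was 0.02. It reached 2 in 57 members. The 5 smallest rises were EXPA16 (1.59), AT1G64380 (1.80), AT1G26920 (1.93), AT2G47440 (1.94) and AT3G06750 (1.95).

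The second step was flat for most members at elevated CO2 as well. Between elevated expanding and mature leaves 53 of 64 moved by no more than 0.5, with a median of -0.01 and a range of -1.61 to 0.65. The test called 10 members (15.6%), 3 higher and 7 lower, against 37.8% of all probe sets, of which 16.9% were higher and 20.9% lower. The 3 that rose were AT1G64380 (0.65), AT2G19310 (0.43) and AT5G38510 (0.34). The 7 that fell were AT5G05250 (-1.61), AT4G34560 (-0.97), EXPA8 (-0.89), BGLU33 (-0.73), AT3G07010 (-0.55), AT4G19530 (-0.40) and AT2G47440 (-0.38). The count of called members was 6 without expanding elevated replicate 2 and 6 without mature elevated replicate 4.

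Both conditions together were met on the elevated arrays by 47 of the 64 members (73.4%). The same rule applied to the elevated arrays alone took 89 of 6782 genes (1.31%), so the shared 47 were 52.8% of that list. Of the 17 members that missed it, 7 missed the rise and 11 the window, 1 of them both. No expansin met the rule at elevated CO2, nor did SWEET4, BGLU33 or CYP71B24, whereas LPR2, NPF6.2, ndhJ, ndhK and 43 of the 54 locus-only genes did. SWEET4 (-0.517) and CYP71B24 (0.510) missed the window by little, and neither step passed the test (limma, adjusted p = 0.0695 and 0.318). A moderated F test called no member for a CO2 difference that changed between stages.

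**Figure D2:**
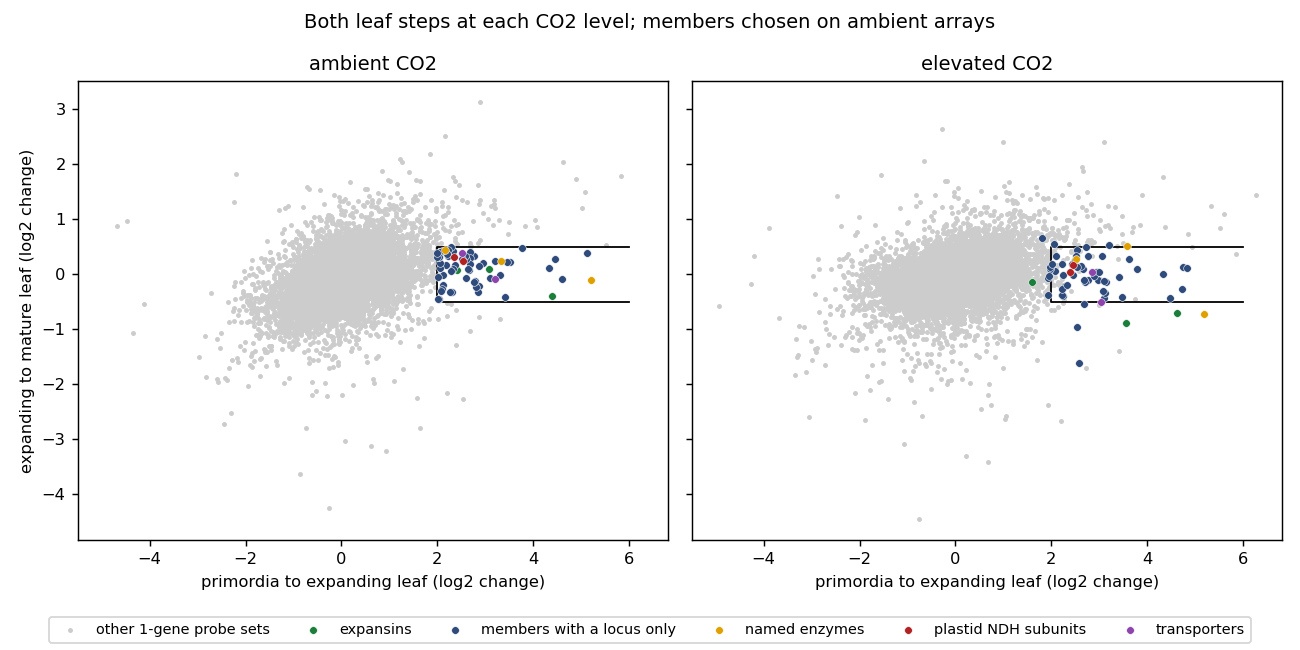
Change from primordia to expanding leaves (horizontal, log2) against change from expanding to mature leaves (vertical, log2) at ambient CO2, on which the members were chosen, and at elevated CO2. Each point is a gene, colours mark members by the function their name gives, grey marks the other probe sets with 1 gene, and the open box is the rule. At elevated CO2, 47 of 64 members stay in the box and AT5G05250 lies lowest at -1.61.

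The 3 expansin members were called higher in expanding leaves than in primordia on the elevated arrays. Other expansin genes measured did not meet the rule, and some fell. From primordia to expanding leaves at ambient CO2, EXPA4 changed by -0.69, EXPB3 by -0.96 and EXPA15 by -1.04. EXPA9 changed by 0.50 and EXLA2 by 0.76. EXPA8 read -1.83, -1.11, -1.74 and -1.85 in ambient primordia and -1.72, -1.63, -2.46 and -2.24 in elevated primordia. In expanding leaves it read 1.78, 1.28 and 1.28 at ambient and 1.44, 1.36 and 1.86 at elevated CO2, so on the elevated arrays, which the rule did not use, every expanding value lay above every primordia value. Its rise on the elevated arrays was 3.57 ± 0.26 (log2 change, SE; adjusted p = 1.74e-10, limma).

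In mature leaves EXPA8 read 1.93, 1.54, 1.65 and 1.05 at ambient and 1.26, 0.38, 0.20 and 0.80 at elevated CO2. The elevated values were mostly lower, with an overlap at 1 array of each group. The difference was -0.89 ± 0.24 (limma, adjusted p = 0.0420). The call was lost in 9 of 15 alternatives, over which the adjusted p ran from 0.0150 to 0.302.

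EXPA16 separated by CO2 at both later stages. In ambient primordia it read -2.63, -2.66, -3.41 and -3.03, and in elevated primordia -2.58, -2.70, -2.40 and -2.72. In expanding leaves it read -0.72, -0.31 and -0.57 at ambient and -0.93, -1.08 and -1.0 at elevated CO2, a difference of -0.47 ± 0.20 that did not pass the test (limma, adjusted p = 0.270). In mature leaves it read -0.51, -0.44, -0.32 and -0.54 at ambient and -0.68, -1.57, -1.40 and -0.94 at elevated CO2, with no overlap and a difference of -0.70 ± 0.17 (limma, adjusted p = 0.0321). This call was lost in 8 of 14 alternatives, with adjusted p from 0.00856 to 0.192.

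EXLB1 had the largest rise of the 3, with levels of -3.23 ± 0.58 in ambient primordia (SD, n = 4), 1.17 ± 0.10 in ambient expanding (n = 3) and 0.78 ± 0.19 in ambient mature leaves (n = 4). At elevated CO2 the levels were -3.33 ± 0.76, 1.29 ± 0.13 and 0.58 ± 0.28. Its elevated rise was 4.62 ± 0.30 (limma, adjusted p = 4.18e-11), and its step to mature leaves of -0.71 ± 0.30 did not pass the test (limma, adjusted p = 0.0696). Its CO2 difference in mature leaves was -0.19 ± 0.28 (limma, adjusted p = 0.720). The list of genes with names of wall and expansion proteins held 21 measured genes, EXPA8 and EXPA16 among them. EXLB1 was not on it. In mature leaves 1 of the 21 was called higher at elevated CO2, the pectin methylesterase gene ATPMEPCRB (0.75 ± 0.18, limma, adjusted p = 0.0257). The 3 called lower were EXPA8, EXPA16 and the xyloglucan endotransglucosylase/hydrolase gene XTH32 (-0.55 ± 0.14, limma, adjusted p = 0.0321). Among the 12511 probe sets tested, 1.76% passed as higher and 2.14% as lower at this stage. EXPA8 and EXPA16 are the members described above and are not separate evidence. No alternatives are given for the calls of ATPMEPCRB and XTH32. The list's median was -0.19, against -0.02 over all probe sets. On the elevated arrays 10 of its 21 genes were called higher and 10 lower from primordia to expanding leaves, against 36.0% and 33.9% of all probe sets.

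Both transporter genes were called higher in expanding leaves than in primordia on the elevated arrays. SWEET4 belongs to the SWEET sugar transporters. Its level was -3.43 ± 0.47 in ambient primordia (SD, n = 4), -0.23 ± 0.38 in expanding (n = 3) and -0.33 ± 0.20 in mature leaves (n = 4), and its rise at elevated CO2 was 3.03 ± 0.22 (limma, adjusted p = 1.91e-10). In mature leaves it read -0.11, -0.53, -0.21 and -0.45 at ambient and -1.0, -0.96, -0.43 and -0.56 at elevated CO2. The groups overlapped, and the difference of -0.41 ± 0.20 did not pass the test (limma, adjusted p = 0.240). NPF6.2, of the NRT1/PTR transporter family, rose by 2.85 ± 0.21 on the elevated arrays (limma, adjusted p = 2.79e-10). Its mature levels were 1.49 ± 0.25 at ambient and 1.1 ± 0.27 at elevated CO2 (SD, n = 4), a difference of -0.39 ± 0.20 (limma, adjusted p = 0.252). Among 11 measured genes of sugar transport and sucrose metabolism, 8 were called higher, SWEET4 included, and 1 lower from primordia to expanding leaves on the elevated arrays. The shares of all probe sets were 36.0% and 33.9%. SWEET4 was the 1 member on that list.

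Of the 3 named enzymes, BGLU33, a beta-glucosidase by name, had the largest ambient rise of all members. It read -3.35, -2.45, -4.13 and -2.81 in ambient primordia and 2.14, 1.80 and 2.13 in ambient expanding leaves. At elevated CO2 it read -3.21, -3.12, -3.10 and -3.00 in primordia and 2.01, 2.04 and 2.20 in expanding leaves, a rise of 5.19 ± 0.25 (limma, adjusted p = 9.64e-13). On the elevated arrays all primordia values were more than 4 units below all expanding values, and the ambient separation was set by the rule.

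In mature leaves BGLU33 read 1.97, 2.07, 2.14 and 1.48 at ambient and 1.62, 1.51, 1.09 and 1.22 at elevated CO2. These overlapped, and the difference of -0.56 ± 0.24 did not pass the test (limma, adjusted p = 0.173). CYP71B24, a cytochrome P450, rose by 3.59 ± 0.39 on the elevated arrays (limma, adjusted p = 5.83e-08). The 9 measured genes on the P450 list were all of the CYP71B subfamily, CYP71B24 among them. Of these 9, 7 were called higher and none lower for that step, against 36.0% and 33.9% of all probe sets. The other 2 had changes below 0 that did not pass the test. CYP71B24 varied widely in primordia, from -4.76 to -2.73 at ambient and from -5.22 to -3.28 at elevated CO2.

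LPR2, whose synonym is Low Phosphate Root2, is a multicopper oxidase. It read 1.24, 0.74 and 0.68 in ambient and 1.01, 1.51 and 1.64 in elevated expanding leaves, overlapping at 1 array of each group. The difference of 0.50 ± 0.16 had the smallest adjusted p of the members at that stage (0.168, limma). In mature leaves it read 1.18, 1.29, 1.43 and 1.41 at ambient and 1.77, 1.68, 1.72 and 1.5 at elevated CO2. The groups did not overlap there, and the difference of 0.34 ± 0.14 did not pass the test (limma, adjusted p = 0.147).

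The plastid genes ndhJ and ndhK moved alike. In ambient primordia ndhJ read 2.54, 2.97, 1.78 and 1.77 and ndhK 1.62, 2.13, 0.93 and 0.73. In ambient expanding leaves ndhJ read 4.71, 4.6 and 4.51 and ndhK 4.16, 3.82 and 3.70. Both were thus above the array median from the start and rose further. The other plastid ndh genes measured rose at ambient CO2 by 0.52 (ndhC) to 1.70 (ndhE), less than the rule's threshold of 2. On the elevated arrays ndhJ rose by 2.39 ± 0.28 (limma, adjusted p = 2.13e-07) and ndhK by 2.46 ± 0.34 (limma, adjusted p = 1.94e-06). Their CO2 differences lay below 0 at all 3 stages, between -0.35 and -0.06, and none passed the test. They were the 2 members among 46 measured genes of the light reactions, Calvin cycle and photorespiration. Most of the 46 were psa, psb and ndh genes of the plastid genome. From primordia to expanding leaves on the elevated arrays 44 were called higher and none lower, against 36.0% and 33.9% of all probe sets. The median rise of those 46 was 1.16. In mature leaves 3 of them had a CO2 difference above 0, against 45.8% of all probe sets. The median difference of the 46 was -0.20, and 1 was called, lower, against 3.90% of all probe sets called. In elevated mature leaves ndhJ read 4.85, 4.89, 4.11 and 4.50 and ndhK 4.12, 4.21, 3.09 and 3.68, lowest in replicates 3 and 4. How far the differences of the 46 depend on these arrays was not tested.

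The CO2 differences use the ambient arrays that also chose the members, and are not independent of that choice. Their medians are therefore also given for members chosen on the elevated arrays and on the mean of both CO2 levels. These choices also use arrays that enter the differences, so those medians are not independent of the choice either.

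In primordia no member was called for CO2 (limma), against 0.00799% of all probe sets. An unadjusted p under 0.05 was found for 11 of 64 (17.2%), against 3.77% of all. The differences split evenly, 32 above and 32 below 0, with 52.0% of all probe sets above, and had a median of 0.003. This split depended on single arrays. With 1 array left out, between 23 and 46 were positive, and the median ran from -0.13 to 0.13. The median was -0.09 with members chosen on the elevated arrays and -0.02 with members chosen on the mean. The 5 positive differences with the smallest p were AT5G19240 (0.82), AT3G60420 (0.69), AT3G19850 (0.34), AT5G48540 (0.88) and AT2G25735 (0.49). The 5 negative ones were AT3G25570 (-0.50), AT2G36430 (-0.38), AT5G44580 (-0.53), AT5G46270 (-0.51) and AT3G07010 (-0.33). The smallest adjusted p was 0.730, and in no member did all elevated arrays lie on 1 side of all ambient arrays, against 1.5% above and 1.72% below over all probe sets.

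In expanding leaves more members lay above 0 at elevated CO2, and none was called (limma, smallest adjusted p = 0.168), as none of all probe sets was (0%). The difference was positive in 46 of 64, against 44.1% of all probe sets, and the median was 0.14 against -0.03. With members chosen on the elevated arrays the median was 0.19, and on the mean 0.17. An unadjusted p under 0.05 was found for 8 members (12.5%), against 14.7% of all. Leaving out 1 array at a time kept between 38 and 47 positive. The 5 positive differences with the smallest p were LPR2 (0.50), AT5G19240 (0.78), AT3G60420 (0.72), AT1G35710 (0.95) and AT5G48540 (0.88). The 5 negative ones were AT1G64380 (-0.41), EXPA16 (-0.47), AT3G19850 (-0.25), AT4G12830 (-0.24) and AT1G22690 (-0.24). All elevated arrays lay above all ambient arrays for 6 members (9.38%, against 7.43% of all probe sets) and below for 5 (7.81%, against 12.9%).

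AT1G35710 had the largest of these differences. It read 2.43, 1.59 and 0.68 in ambient and 2.30, 2.25 and 3.00 in elevated expanding leaves. The ambient arrays were widely spread and overlapped the elevated ones at replicate 1, and the difference of 0.95 ± 0.40 did not pass the test (limma, adjusted p = 0.277).

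In mature leaves 4 of 64 members were called for CO2 (6.25%), against 3.90% of all probe sets, 1 higher and 3 lower, where 1.76% of all were higher and 2.14% lower. Those lower were EXPA8, EXPA16 and AT3G07010, and the one higher was AT5G19240. The differences were positive in 27 and negative in 37, against 45.8% positive over all probe sets, with a median of -0.08 against -0.02. The median was -0.04 with members chosen on the elevated arrays and -0.02 with members chosen on the mean. An unadjusted p under 0.05 was found for 18 (28.1%), against 22% of all. All elevated arrays lay above all ambient arrays for 7 members (10.9%, against 4.45%) and below for 4 (6.25%, against 4.76%).

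AT5G19240 was higher at elevated CO2 at every stage. In primordia it read -2.10, -1.17, -2.21 and -2.06 at ambient and -1.18, -1.18, -0.62 and -1.26 at elevated CO2. In expanding leaves it read 1.22, 0.98 and 0.46 at ambient and 1.29, 1.70 and 2.03 at elevated CO2. In mature leaves it read 0.94, 0.95, 1.17 and 1.79 at ambient and 2.09, 2.34, 2.27 and 1.97 at elevated CO2. The groups overlapped in primordia through ambient replicate 2 and did not overlap at the later stages. The differences were 0.82 ± 0.23 in primordia (limma, adjusted p = 0.730), 0.78 ± 0.27 in expanding leaves (adjusted p = 0.198) and 0.96 ± 0.23 in mature leaves (adjusted p = 0.0302), so it passed the test in mature leaves. There the call was lost in 9 of 15 alternatives, with adjusted p from 0.00783 to 0.169.

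AT3G07010 read 2.12, 1.91, 1.91 and 1.58 in ambient and 1.61, 1.60, 0.87 and 1.25 in elevated mature leaves. The lowest ambient array overlapped the elevated group, and the difference was -0.55 ± 0.15 (limma, adjusted p = 0.0432), a call lost in 9 of 15 alternatives, with adjusted p from 0.0181 to 0.462. AT5G05250 had the largest difference in size, -1.23 ± 0.44, and did not pass the test (limma, adjusted p = 0.111). It read 0.49, 1.62, 1.35 and 1.08 at ambient and -1.51, -0.96, 1.60 and 0.50 at elevated CO2, so the elevated arrays split between replicates 1 and 2 and replicates 3 and 4.

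The mature calls depended on single arrays. None of the 4 members was called without ambient replicate 1, 2 or 3, and 7 members were called without ambient replicate 4. Without elevated replicates 3 and 4 the 4 differences were 1.00 for AT5G19240 (limma, adjusted p = 0.169), -0.68 for EXPA16 (0.192), -0.73 for EXPA8 (0.302) and -0.28 for AT3G07010 (0.462), AT5G05250 was the 1 member called, and 40 of 64 differences were positive instead of 27. What sets these 2 arrays apart was not tested. Of the cell type markers listed for leaves, 2 had a named probe set. At elevated CO2 in mature leaves the trichome gene TRY was lower by this test (-0.66 ± 0.18, limma, adjusted p = 0.0478), and the guard cell gene FMA differed by -0.31 ± 0.15 without passing it (limma, adjusted p = 0.242). TRY was the 1 measured of 4 trichome markers listed, and no alternatives are given for its call. The part of TRY and FMA in the members' differences was not tested.

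**Figure D3:**
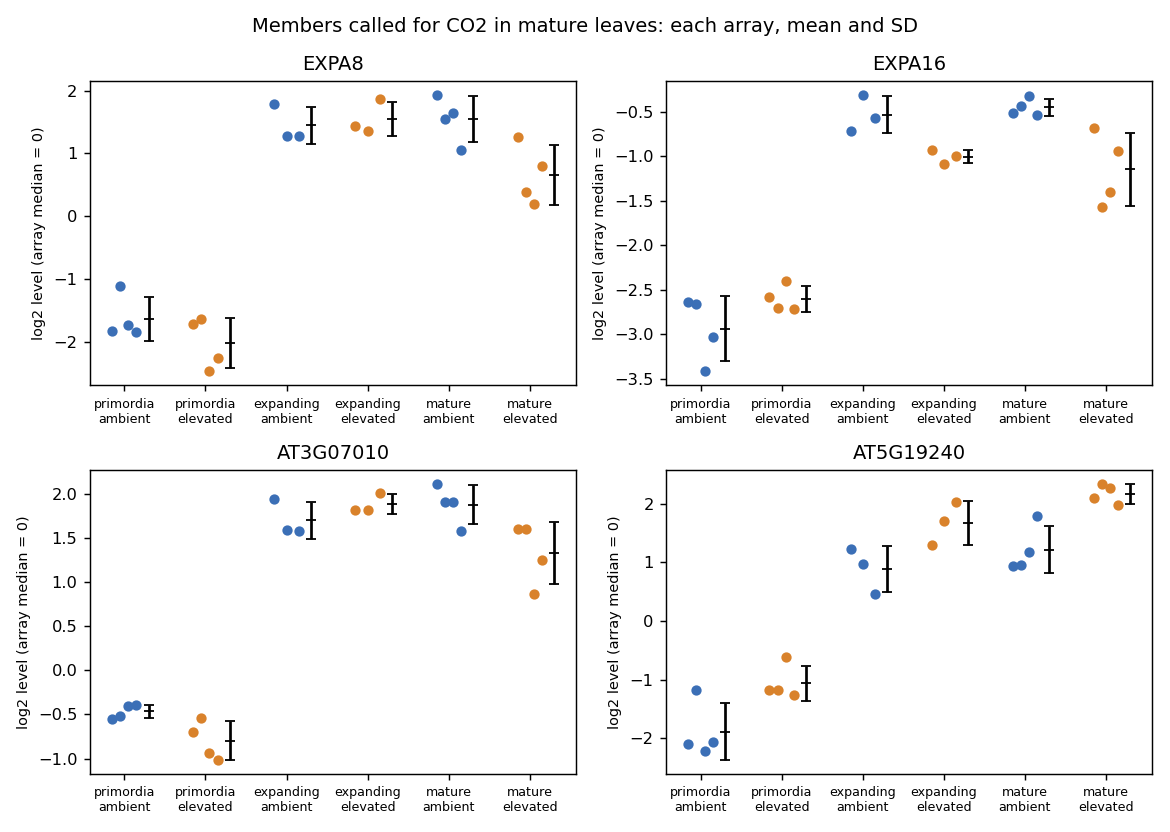
Log2 levels on each array (vertical, array median at 0) of the 4 members called for CO2 in mature leaves, by stage and CO2 level (blue ambient, orange elevated). Black marks are the group mean with its SD (n = 4, or 3 for expanding leaves). EXPA16 and AT5G19240 separate fully by CO2 in mature leaves, whereas EXPA8 and AT3G07010 overlap.

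Across stages, 16 members (25%) had a CO2 difference above 0 at all 3 stages, against 12.4% of all probe sets, and 9 (14.1%) below 0, against 16.1%. The primordia signs that enter these counts shifted when single arrays were left out. Besides AT5G19240 and LPR2, the 16 included AT1G35710 (0.57, 0.95 and 0.79 in primordia, expanding and mature leaves) and AT5G48540 (0.88, 0.88 and 0.91). AT5G48540 read -1.53, -1.17, -0.94 and -0.67 in ambient and -0.47, 0.21, -0.22 and -0.19 in elevated mature leaves, without overlap, and did not pass the test there (limma, adjusted p = 0.136). Neither gene was called at any stage. The 9 below 0 included ndhJ, ndhK and NPF6.2. A moderated F test of whether the CO2 difference changed between stages called no member, against 0.0320% of all probe sets. An unadjusted p under 0.05 was found for 7 of 64 members, against 1724 of 12511 probe sets, with the smallest adjusted p, 0.196, for EXPA16 and AT3G19850. EXPA16 went from 0.34 ± 0.17 in primordia to -0.47 and -0.70 later.

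**Figure D4:**
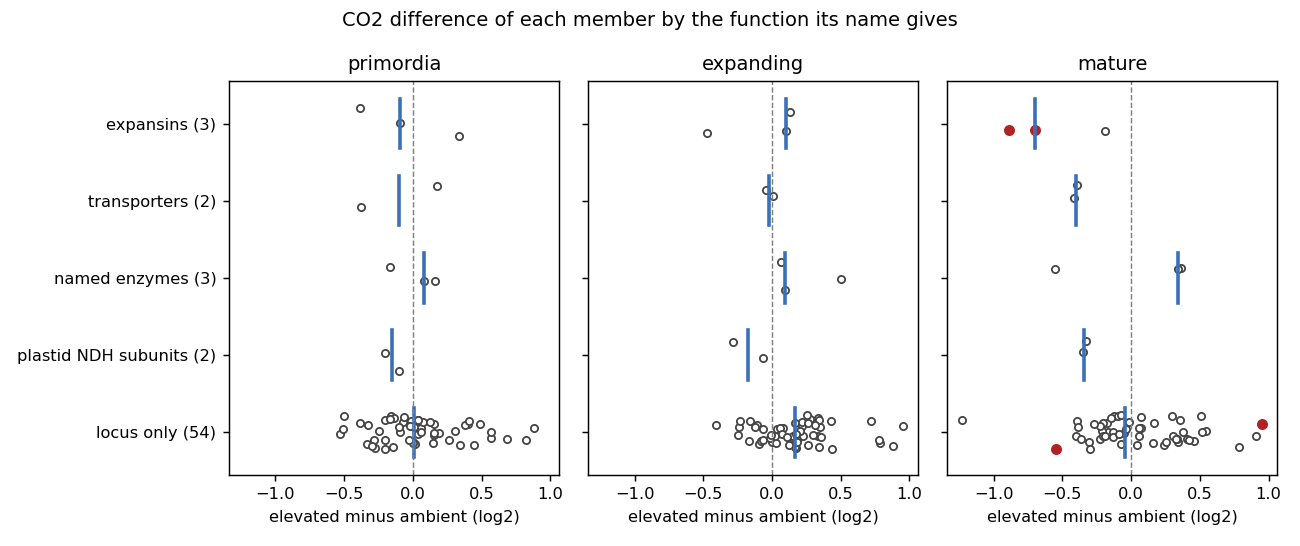
CO2 difference (horizontal, elevated minus ambient, log2) of each of the 64 members in primordia, expanding and mature leaves, in rows by the function its name gives, with the number of members in brackets. Filled red points passed the test, open points did not, and blue bars are medians. The 3 expansins lie below 0 in mature leaves, 2 of them called, while the locus-only members spread on both sides of 0 at each stage.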

How the data were processed

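Expression was measured on Affymetrix arrays, per the labels with biotin-labelled RNA from a kit that amplifies from the 3' end. The authors' deposited values are log2 levels of 12570 probe sets, centred on each array's median. The base was inferred from their range (-6.80 to 6.54). How background was corrected and probes summarised is not stated (not given in the sources used here). Arrays have no read depth, and their number limits the precision. Nothing in the labels shows that expanding or mature replicates came from separate plants, so p-values measure the spread between these samples. Without its 59 controls the table left 12511 probe sets to test. The platform annotation named 1 gene for 6782, several for 262 and none for 5467, and 16 of the 6782 had no match in the TAIR10.1 table. No coordinates or sequences are printed.

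One model with a mean for each of the 6 groups was fitted with limma (version 3.58.1, R 4.3.3), leaving 16 residual degrees of freedom. P-values were two-sided and Benjamini-Hochberg adjusted over 12511 probe sets, with calls at an adjusted p under 0.05. Errors of differences are moderated standard errors. Scripts were tested on simulated data. Cell type markers could not check the tissue, since 2 of them, FMA and TRY, had a named probe set. Named are the 10 largest ambient rises, the genes nearest each threshold, in each CO2 comparison the called members or else 5 positive and 5 negative differences of smallest p, the smallest rises and largest later changes at elevated CO2, and members on gene lists. LPR2's later stages, AT5G05250 in mature leaves, ndhJ, ndhK, EXLB1 and NPF6.2 were also described after their values were seen. Members and lists were chosen with earlier results of these data known. Alternatives were another normalization, array weights, an intensity trend, a filter on low levels, separate fits, other thresholds and left-out arrays.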

Additional observations from a re-analysis of the deposited data

Results flagged for a closer look

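Single arrays stood apart within groups of 4 in 11 of 136 tests over 33 named genes and the members' median, where chance gives about 1 in 20 (6.8). In ambient primordia the highest array stood apart for AT5G19240 (-1.17), AT3G19850 (-1.61) and EXPA8 (-1.11). In elevated primordia the lowest array stood apart for AT1G35710 (-2.59), AT2G32160 (-2.85) and AT5G05250 (-1.57), and the highest for AT5G19240 (-0.62) and AT4G34560 (-2.39). In ambient mature leaves the lowest array stood apart for AT1G06830 (1.87), and the highest for ndhK (4.77) and AT2G25735 (-1.18). All values are log2 levels relative to the array median.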

How the results depend on the processing

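The 64 rises at elevated CO2 were called under each alternative run, except that 49 were called with the lowest 25% of probe sets left out, when fewer members were tested. Members called from expanding to mature leaves at elevated CO2 numbered 6 to 11 with 1 array left out. Calls for CO2 in expanding leaves numbered 0 to 1 with 1 array left out and 1 with array weights, each time LPR2. Calls in mature leaves went from 4 to 0 in a separate fit of that stage, 1 with array weights, 1 without elevated replicates 3 and 4 together, and 0 to 7 with 1 array left out. With array weights, and without elevated replicate 3 alone or with 4, the 1 call was AT5G05250, so all 4 were lost; the cause was not tested. The main model used no pairing by replicate number. Correlations of same-numbered deviations ran from -0.248 to 0.261. With 3 or 4 arrays per group they cannot decide whether replicate numbers pair the samples. With the replicate number as a block, 1 member was called for CO2 in mature leaves (EXPA8) and 13 from expanding to mature leaves. No member was called in primordia or by the F test under any alternative run. The number of members was 180 with a rise of 1.5, 35 with 2.5, 37 with a window of 0.3 and 55 to 78 with 1 array left out, and 45 to 51 met the rule at elevated CO2. Of the named genes' values under alternatives, 397 kept their side of the threshold, 43 lost it, 4 gained it and none changed sign.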
